A study of Mus musculus with 9 samples.

Results

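The 9 genes described here are the IL17 receptors (Il17ra, Il17rb, Il17rc, Il17rd and Il17re), the adaptors that carry their signal (Traf3ip2, Traf6 and Traf3) and Nfkbiz, a regulator that the signal induces. They were taken by gene symbol from the 55401 genes counted in mouse livers, without regard to their values, and each symbol had 1 row. Of the 9 genes, 8 passed the filter on low counts. Il17re did not, and is given by its counts.

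IL17 cytokines bind pairs of receptor chains. IL17RA is the chain common to most of these pairs, IL17RC completes the receptor for IL17A and IL17F, IL17RB the receptor for IL25, and IL17RE the receptor for IL17C. The bound receptor recruits Act1 (encoded by Traf3ip2), an adaptor and ubiquitin ligase that engages TRAF6 and turns on NF-kB, MAP kinases and C/EBP factors. TRAF3 binds the receptor and competes with Act1. In the liver, hepatocytes, stellate cells and macrophages are known to respond to IL17, and T cells and other lymphocytes to make it.

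The livers came from female mice in 3 groups of 3. Healthy livers had no treatment. The mice with hepatocellular carcinoma (HCC) were injected at 6 weeks of age with sleeping beauty transposon plasmids, pushed into hepatocytes by a fast, large injection into the tail vein. These plasmids encoded activated AKT and NRAS. The sample descriptions list a β-catenin plasmid as well, whereas the series text names only RAS and AKT. After 1 week these mice were given an AAV8 vector, either with miR-22 (the miR-22-treated HCC group) or empty (the untreated HCC group), at 1 trillion genome copies per kg per the sample descriptions, and the livers were taken at 5 weeks, 4 weeks after the virus. The study's methods name a CMV promoter for the vector, which is not specific to hepatocytes, and give a larger dose. Strain is written as C57BL/6 in one field of the sample descriptions and as FVB/N in another. Because healthy livers received neither plasmid nor virus, tumor, injection and AAV8 cannot be told apart in any comparison with them.

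Sequencing gave 18258660 to 20964551 counts per healthy liver, 18293676 to 23908392 per untreated HCC liver and 16664659 to 20459853 per miR-22-treated liver. Levels below are in CPM, counts relative to library size with TMM scaling, and errors are the SD over 3 livers. As a check of the labels, Akt1 ranged from 103 to 109 CPM without tumor, from 1170 to 1673 in the untreated and from 671 to 1104 in the miR-22-treated livers. The row of the miR-22 gene itself, Mir22, held 0 counts in all 9 livers, so these counts do not measure how much miR-22 the vector delivered. Its endogenous host transcript, Mir22hg, was at 56.5 to 70.8 CPM in healthy livers, 13.3 to 20.6 in untreated HCC livers, and 27.9 to 32.7 with miR-22. Hepatocyte markers were abundant in all 3 groups, Alb between 42203 and 102972 CPM.

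The treatment agent, mature miR-22-3p, is 22 bases long. It is shown because the bases that pair with target transcripts, its seed at positions 2 to 8 (capitals), define what was searched for in the members. It lies at chr11:75463772-75463793 on the plus strand of GRCm38.p6, and the sequence is from RefSeq.

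miR-22-3p: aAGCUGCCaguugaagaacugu

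The seed pairs with the 7 bases GGCAGCT. This match was sought in the 3′ UTR of the canonical GENCODE transcript of each member on GRCm39. It occurred 6 times in 4 of the 9 members (44.4%), and in 14% of 20715 annotated genes. The members' 3′ UTRs were long, with a median of 4164 bases against 1084 over all genes, and the share over all genes was not adjusted for length. 1 match of each gene is printed below, with the match in capitals. The genes that hold them include both members called lower with miR-22 (Il17rd and Traf3), as well as Il17ra and Traf3ip2, which were not called between the HCC groups. Whether matches are more frequent among genes that fell was not tested.

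Il17rd: gcctacctgctgagcGGCAGCTatcccacg
Traf3: tgccaggcctccattGGCAGCTcttgaagc
Il17ra: attcagcacccacatGGCAGCTcacaaccg
Traf3ip2: atttatactgaaaagGGCAGCTctgggata

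Il17rd holds 3 of the 6 matches, and the one shown lies at chr14:26828331-26828337, where an A follows it. The match in Traf3 is at chr12:111229759-111229765, that in Il17ra at chr6:120461960-120461966 and that in Traf3ip2 at chr10:39530871-39530877, all on the plus strand of GRCm39. No match was found in Il17rb, Il17rc, Il17re, Traf6 or Nfkbiz. The 3′ UTR of Il17rc was 23 bases long and could hardly hold one, whereas that of Traf6, at 5701 bases, was longer than those of 3 of the genes with a match. A match of these letters is a description of the transcript, not a measured site of binding.

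**Figure D1:**
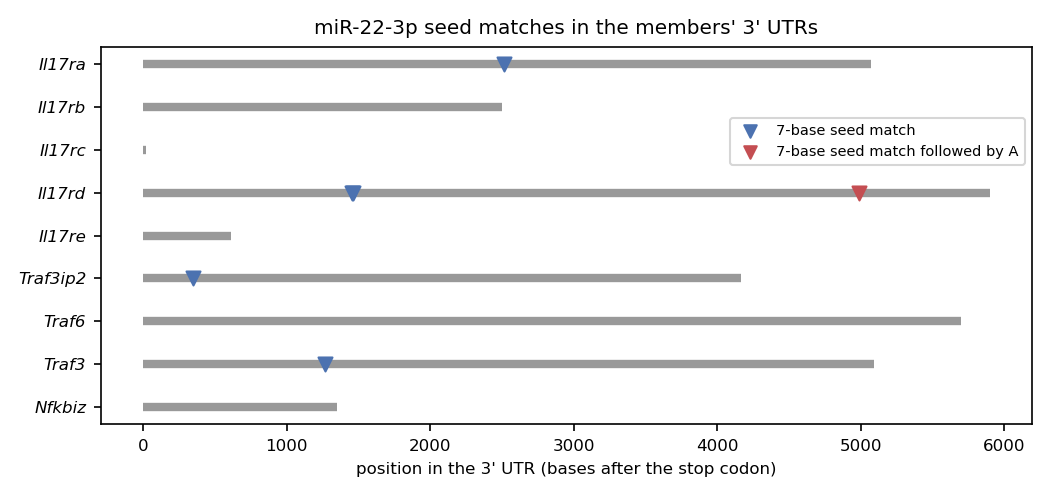
Positions of the 7-base match to the miR-22-3p seed (triangles) in the 3′ UTR of each member (grey bars), in bases after the stop codon. Il17rd carries 3 of the 6 matches, of which 1 is followed by A (red) and the other two overlie each other in the plot, and 5 members carry none.

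Differences were tested in edgeR with 1 fit over all 15717 genes that passed the filter. A call required that the Benjamini-Hochberg adjusted p was under 0.05 and that the level changed more than 1.5-fold. The comparisons share livers: untreated HCC enters those with healthy and with miR-22-treated livers, so their values are set side by side and not correlated. Whole livers were sequenced, so fewer cells of a type and less RNA per cell cannot be told apart in any value below.

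Untreated HCC was compared with healthy liver to ask how the tumor-bearing liver differed in its IL17 receptors and adaptors. Il17rd, Traf3 and Il17rb were higher in untreated HCC, by 5.45-, 2.21- and 1.51-fold, and no member was called lower. These 3 are 37.5% of the 8 tested members, near the 40.8% of all tested genes that were called in either direction, and 22.7% of all tested genes were called higher. The median log2 fold change was 0.22 over the tested members and 0.01 over all genes. Il17ra, Il17rb, Il17rc, Il17rd, Traf3ip2 and Traf3 had livers that did not overlap between these groups, 75% of the tested members against 65.3% of all genes tested, so this count says little about the members.

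miR-22-treated HCC was compared with untreated HCC to ask which of the genes responded to the therapy. Il17rd and Traf3 fell, to 0.418 and 0.641 of their level in untreated HCC, and no member was called higher. They are 25% of the tested members, where 13.8% of all genes were called and 5.47% were called lower. The median log2 fold change was -0.18 over the members and 0.002 over all genes. Il17rd, Il17rb and Traf3 did not overlap between the HCC groups, 37.5% of the tested members against 39.3% of all genes.

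Against healthy liver, miR-22-treated HCC had higher Il17rd and lower Traf3ip2. These 2 genes are again 25% of the members tested, close to the 24% of all genes called. The median was 0.07 over the members and 0.02 over all genes. Il17rd, Traf3ip2 and Traf3 had no overlap between miR-22-treated and healthy livers, 37.5% of the tested members against 48.8% of all genes.

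**Figure D2:**
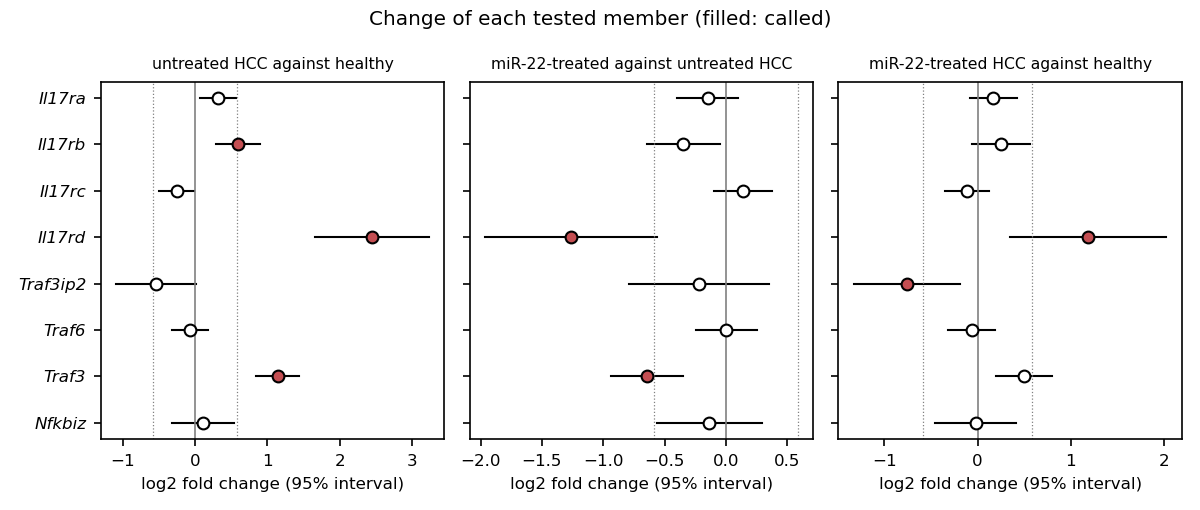
Log2 fold change of each of the 8 tested members (points) with its 95% interval (lines) in the 3 comparisons. Filled points passed both thresholds, and dotted lines mark a fold change of 1.5. Il17rd has the longest distance from 0 in each panel, at 2.45, -1.26 and 1.19, and Traf6 and Nfkbiz lie near 0.

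Among the receptors, Il17ra, the common chain, is encoded at chr6:120440104-120464520 (GRCm39, plus strand). Its level was 22.4, 20.0 and 19.0 CPM in healthy livers 1, 2 and 3, 24.3, 27.4 and 24.8 in untreated HCC livers 2, 3 and 4, and 21.4, 21.3 and 26.1 in miR-22-treated livers 2, 3 and 4. All untreated HCC livers were above all healthy livers, and the miR-22-treated livers spanned both. The rise in HCC was 1.25-fold (95% interval 1.05 to 1.48, adjusted p = 0.0303), which passed the adjusted p but not the fold threshold. With miR-22 the log2 difference from untreated HCC was -0.15 (95% interval -0.39 to 0.10, adjusted p = 0.376), so a fall of more than 1.31-fold lay outside the interval.

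Il17rc, the partner of Il17ra in the receptor for IL17A and IL17F, lies at chr6:113448388-113460103. It was at 29.0, 31.0 and 29.3 CPM in healthy livers, 21.4, 27.0 and 26.4 in untreated HCC, and 30.0, 26.7 and 25.9 in miR-22-treated HCC. Healthy livers were all above untreated HCC livers, but the fold threshold and the adjusted p were both missed (log2 -0.25, SE 0.109, adjusted p = 0.0639). Neither the difference with miR-22 (0.14, adjusted p = 0.384) nor that of miR-22-treated from healthy liver (-0.11, adjusted p = 0.454) passed. The last exons of Il17rc share 742 bases with the lncRNA Gm57002 on the opposite strand, and the libraries were not strand-specific, so the reads of the pair cannot be told apart.

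Il17re, which pairs with Il17ra to bind IL17C, is the neighbour of Il17rc, ending 668 bases before it (chr6:113435445-113447719). It held 7, 3 and 9 counts in healthy livers, 1, 9 and 11 in untreated HCC, and 3, 1 and 17 in miR-22-treated HCC. The groups overlapped throughout, and the highest liver of the 9 was miR-22-treated replicate 4 at 0.809 CPM. A difference in Il17re was not detectable at this depth.

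Il17rb, the receptor chain for IL25, is encoded on the minus strand at chr14:29716082-29730956. Its level was 9.93, 10.5 and 10.1 CPM in healthy livers, 16.3, 16.8 and 13.2 in untreated HCC, and 10.2, 13.1 and 13.0 in miR-22-treated HCC. Every untreated HCC liver exceeded every other liver, and replicate 4, the lowest of the untreated livers, was only slightly above the highest miR-22-treated liver. The rise in HCC was 1.51-fold (95% interval 1.23 to 1.87, adjusted p = 0.00267), at the very edge of the fold threshold. It was below 1.5-fold when healthy replicate 1 or 3 or untreated replicate 2 or 3 was left out (log2 0.57, 0.58, 0.56 and 0.53). With miR-22 the log2 difference was -0.35 (SE 0.137, adjusted p = 0.0868), which did not pass.

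The exons of Il17rb overlap those of Actr8, a chromatin remodelling subunit on the opposite strand, over 2472 bases, and those of Chdh, choline dehydrogenase, over 101 bases. Without strand information the value of Il17rb is uncertain. Actr8 itself had a log2 difference of -0.17 in untreated HCC against healthy liver and Chdh one of -0.40, neither called and both opposite in sign to Il17rb.

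Il17rd, also known as Sef, is a receptor of the family that is best known as a feedback inhibitor of FGF and ERK signaling. It spans chr14:26760889-26829243 on the plus strand and was sparsely counted, with 13, 15 and 7 counts in healthy livers, 78, 108 and 85 in untreated HCC, and 31, 17 and 41 in miR-22-treated HCC. In CPM these are 0.817, 0.945 and 0.385, then 3.66, 4.84 and 3.18, then 1.77, 1.08 and 1.95. The 3 groups did not overlap: the miR-22-treated livers lay between the healthy and the untreated HCC livers.

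Il17rd was 5.45-fold higher in untreated HCC than in healthy liver (95% interval 3.16 to 9.40, adjusted p = 8.95e-05). With miR-22 it was 2.39-fold lower than in untreated HCC (95% interval 1.47 to 3.90, adjusted p = 0.0143) and 2.28-fold higher than in healthy liver (95% interval 1.28 to 4.06, adjusted p = 0.0294). The fall with miR-22 kept its direction but lost its call without miR-22-treated replicate 3 (log2 -1.06) or untreated replicate 3 (log2 -1.08), the livers with the lowest and highest level of their groups. The difference between miR-22-treated and healthy livers was not called without healthy replicate 3 (log2 0.86) or miR-22-treated replicate 2 or 4 (1.11 and 1.02), nor when the 2 groups were fitted alone (1.18).

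**Figure D3:**
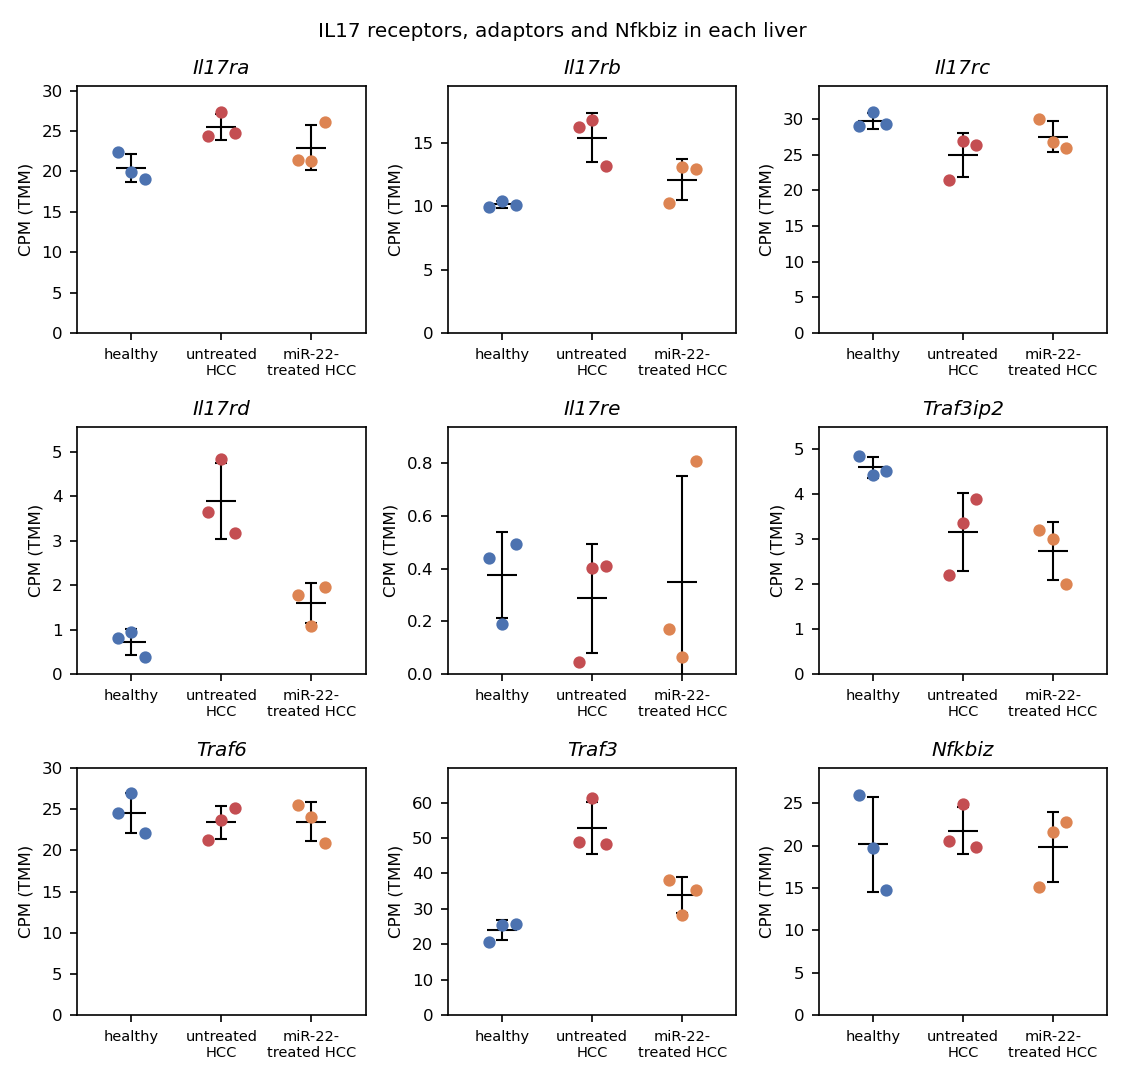
Level of each member in each of the 9 livers, in CPM with TMM scaling, with the mean (horizontal dash) and SD over 3 livers (error bars). Each axis starts at 0 and has its own range. Il17rd and Traf3 are highest in the 3 untreated HCC livers, with the miR-22-treated livers in between, and Traf6 and Nfkbiz overlap in all groups.

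To compare receptors with each other, counts were divided by the length of each gene's exons. In healthy livers the order was Il17rc at 6.56 ± 0.240 CPM per kb, Il17ra at 2.33 ± 0.198, Il17rb at 1.60 ± 0.0420, Il17re at 0.0638 ± 0.0278 and Il17rd at 0.0606 ± 0.0249. The lowest pair did not differ beyond its spread, whereas the other neighbours in this order did. In untreated HCC, Il17rd stood at 0.329 ± 0.0723 CPM per kb, above Il17re at 0.0489 ± 0.0354, and Il17rb at 2.42 ± 0.306 was closer to Il17ra at 2.91 ± 0.186.

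The share of each receptor in the sum of the 5, per kb, does not depend on scaling between libraries. Il17rc made up 61.8% ± 1.56 of the receptor counts in healthy livers, 49.0% ± 3.55 in untreated HCC and 56.3% ± 4.60 in miR-22-treated HCC. Il17ra had 21.97% ± 1.73, 26.0% ± 0.670 and 24.3% ± 2.41. Il17rb had 15.05% ± 0.364, 21.7% ± 2.96 and 17.6% ± 2.50.

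Il17rc was the leading receptor in each liver, and its share was 12.8 percentage points lower in untreated HCC than in healthy liver, while those of Il17rb and Il17ra were 6.62 and 4.01 points higher. Il17rd rose from 0.567% ± 0.222 to 2.93% ± 0.469 of the receptor counts and stood at 1.25% ± 0.331 with miR-22. For these 4 receptors, untreated HCC and healthy livers did not overlap (two-sided exact permutation test, p = 0.1, adjusted p = 0.25 over 15 tests), and 0.1 is the smallest p that 3 against 3 livers allow, so none can pass 0.05. With miR-22 only Il17rd did not overlap with untreated HCC, at 1.67 points lower (-1.67, exact permutation p = 0.1). The share of Il17rc was 7.31 points higher than in untreated HCC and overlapped (exact permutation p = 0.2).

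**Figure D4:**
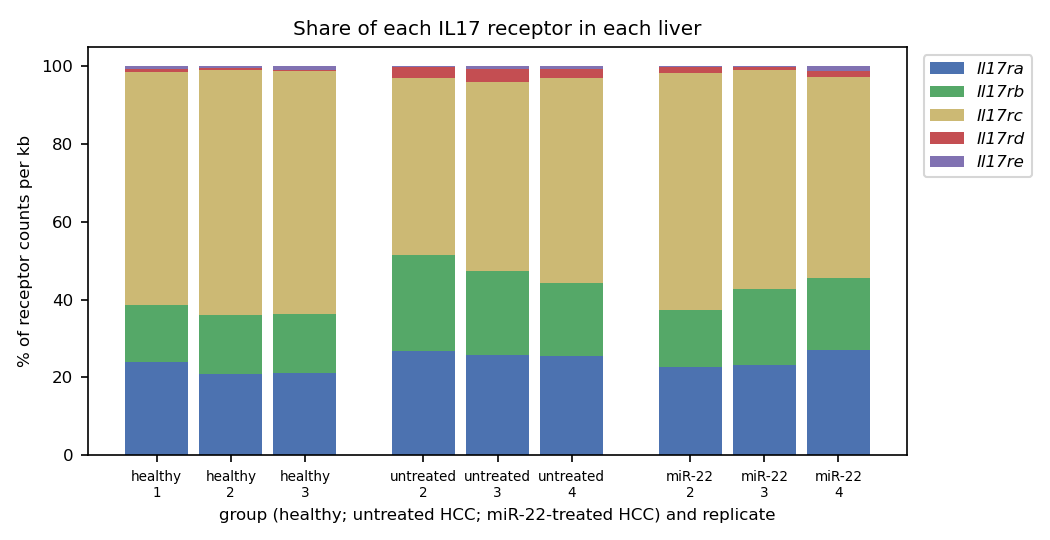
Share of each of the 5 IL17 receptors in their summed counts per kb (percent, stacked bars from 0 to 100) in each of the 9 livers. Il17rc (yellow) takes between 60.0% and 62.9% of the healthy livers' bars, between 45.5% and 52.6% of the untreated HCC bars and between 51.7% and 61.0% of the miR-22-treated bars.

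Of the adaptors, Traf3ip2 encodes Act1, without which IL17 receptors do not signal (chr10:39488930-39534689, plus strand). Its level was 4.84, 4.41 and 4.51 CPM in healthy livers, 2.20, 3.36 and 3.88 in untreated HCC, and 3.20, 3.00 and 2.00 in miR-22-treated HCC. All 6 HCC livers were below all healthy livers, and the HCC groups overlapped. Against healthy liver the log2 difference was -0.54 in untreated HCC (SE 0.254, adjusted p = 0.0904), which did not pass, and -0.75 in miR-22-treated HCC (SE 0.262, adjusted p = 0.0393), which did, a 1.69-fold lower level. That call was lost when any healthy liver or miR-22-treated replicate 3 or 4 was left out, with log2 differences of -0.90 to -0.56 over these fits and the one without miR-22-treated replicate 2. Between the HCC groups the difference was -0.22 (95% interval -0.79 to 0.35, adjusted p = 0.594).

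Exons of Traf3ip2 share 2780 bases with the lncRNA E130307A14Rik and 102 bases with Gm16364, both on the opposite strand, so its value is uncertain in the same way as that of Il17rb. E130307A14Rik was not called in any comparison (log2 -0.03, -0.07 and -0.10).

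Traf6, the ubiquitin ligase downstream of Act1 (chr2:101508519-101533545), was at 24.5, 27.0 and 22.1 CPM in healthy livers, 21.3, 23.7 and 25.1 in untreated HCC, and 25.6, 24.1 and 20.8 in miR-22-treated HCC. All groups overlapped. The log2 differences were -0.07 in untreated HCC against healthy liver (95% interval -0.32 to 0.19, adjusted p = 0.647) and 0.005 between the HCC groups (95% interval -0.25 to 0.26, adjusted p = 0.983). Both intervals exclude a change of 1.5-fold in either direction.

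Traf3, which restrains IL17 receptor signaling and non-canonical NF-kB (chr12:111132776-111233589), was counted more deeply than Il17rd. It was at 20.7, 25.5 and 25.7 CPM in healthy livers, 48.9, 61.4 and 48.4 in untreated HCC, and 38.1, 28.2 and 35.3 in miR-22-treated HCC, from 329 counts or more in each liver. As with Il17rd, the 3 groups did not overlap and the miR-22-treated livers were in between.

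Traf3 rose 2.21-fold in untreated HCC (95% interval 1.80 to 2.72, adjusted p = 1.57e-05). With miR-22 it fell 1.56-fold (95% interval 1.27 to 1.91, adjusted p = 0.00511), and without miR-22-treated replicate 3 or untreated replicate 3 this fall was smaller than 1.5-fold (log2 -0.53 and -0.52). Compared with healthy liver, the miR-22-treated level was 1.42-fold higher (adjusted p = 0.0133), under the fold threshold, and it was called without miR-22-treated replicate 3 (log2 0.62). Per kb, Traf3 went from 2.93 ± 0.345 CPM in healthy liver to 6.48 ± 0.904 in untreated HCC, where Traf6 was at 2.26 ± 0.189 and Traf3ip2 at 0.309 ± 0.0844.

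Promoters, 250 bases before to 50 after the start site, were found in RefSeq (GRCm38.p6) for 6 of the 9 members, and not for Il17ra, Traf3ip2 or Nfkbiz. They were searched on both strands for the NF-kB consensus, for the C/EBP motifs TTGCNNCAA and TTGCGCAA and for AP-1 (TGANTCA), the sites of the factors that IL17 turns on. These are present in 4.51%, 2.26% and 7.81% of 32851 promoters of that length. The 2 matches are shown because they fall in Traf3 and Il17rb, which were higher in untreated HCC. In Traf3 an NF-kB match (capitals) starts 10 bases before the start site, in the window chr12:111166345-111166384 on the plus strand. In Il17rb an AP-1 match starts 104 bases before it, in chr14:30008979-30009015 on the minus strand.

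Traf3, NF-kB: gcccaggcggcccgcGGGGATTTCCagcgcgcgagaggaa
Il17rb, AP-1: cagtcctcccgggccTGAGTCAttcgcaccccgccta

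The windows of Il17rc, Il17rd, Il17re and Traf6 held none of these letters.

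Nfkbiz encodes IκBζ, a nuclear cofactor that is itself induced by IL17 and needed for many of its targets (chr16:55631738-55659262, minus strand). Its level was 26.0, 19.7 and 14.8 CPM in healthy livers, 20.6, 24.9 and 19.8 in untreated HCC, and 15.1, 21.6 and 22.8 in miR-22-treated HCC. The groups overlapped, and the healthy livers alone covered the whole range of the 9. The log2 differences were 0.12 in untreated HCC against healthy liver (95% interval -0.31 to 0.54, adjusted p = 0.643) and -0.13 with miR-22 against untreated HCC (95% interval -0.56 to 0.29, adjusted p = 0.666), intervals that exclude a change of 1.5-fold. The sign of either value, and of that between miR-22-treated and healthy livers (-0.02), turned on which liver was left out.

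The genes whose log2 CPM followed the shared receptor, the shared adaptor and the induced regulator most closely over the 9 livers are given as a description, since the points include large group differences and share libraries. For Il17ra these included Nup62 (Pearson r = 0.963) and AI506816 (0.956). For Traf3ip2 they were Dicer1 (0.952), Rnf8 (0.946) and H1f0 (0.946), and for Nfkbiz Sart1 (0.939), Arl15 (0.930) and Zfp958 (0.927).

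The ligands of these receptors were barely detected. Il17a and Il25 had 0 counts in all 9 livers. Il17f had 1 count, in untreated HCC replicate 4, Il17b had 2, in miR-22-treated replicate 3, and Il17c had 1 count in each untreated HCC liver and in miR-22-treated replicate 2. Il17d had 0, 0 and 1 counts in healthy livers, 5, 6 and 11 in untreated HCC, and 14, 1 and 1 in miR-22-treated replicates 2, 3 and 4. None of the 6 cytokines passed the filter, so none was tested, and a count of 0 allows for up to 3 counts in a liver.

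The other genes of the pathway were placed beside the members in 6 further lists, which with the cytokines hold 74 genes, of which 63 could be tested. In untreated HCC 39 of the 63 were called, 36 higher (57.1%, against 22.7% of all genes) and 3 lower, with a median log2 fold change of 0.85. Of the 63, 6 had 3 counts or fewer in each healthy liver and passed the filter only through the HCC livers. In comparisons with healthy liver these could only be called higher. With miR-22 18 differed from untreated HCC, 16 lower (25.4%, against 5.47% of all genes) and 2 higher (median -0.24). That count was 10, of which 8 were lower, without miR-22-treated replicate 3 and likewise without untreated replicate 3. Against healthy liver 27 differed, 25 of them higher (39.7%, against 16.9% of all genes, median 0.50). The lists were written with earlier results of these data known, so their counts are descriptions.

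Of the signal kinases and adaptors, 4 of 16 were called in untreated HCC (25%, against 40.8% of all genes), 3 higher (18.8%, against 22.7%) and 1 lower, with a median of -0.02. With miR-22, 1 of 16 was called, lower (6.25%, against 5.47% of all genes, median -0.04), and none without miR-22-treated replicate 2 or 3. The share called higher in untreated HCC and that called lower with miR-22 are near those of all genes. Chuk, which encodes the kinase IKKα, was at 176 to 197 CPM in healthy livers and 103 to 119 in untreated HCC, a fall of 1.69-fold (adjusted p = 4.31e-05). Traf2, another TRAF of the receptor complex, was at 13.8 to 15.6 CPM in healthy livers and 28.9 to 30.0 in untreated HCC, and it fell with miR-22 (log2 -0.66, SE 0.166, adjusted p = 0.0133). Traf4, which competes with TRAF6 for Act1, rose in untreated HCC (log2 0.70, adjusted p = 7.66e-05).

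The brakes and mRNA stability factors of the pathway, which act alongside Traf3 to limit or prolong the signal, gave 5 calls of 10 in untreated HCC (50%, near the 40.8% of all genes), 4 of them higher (40%, against 22.7%), with a median of 0.37. Tnfaip3, the ubiquitin editor A20, rose by 2.57 on the log2 scale, Tnip1, its partner, by 2.03, and Zc3h12a, the RNase Regnase-1, by 1.13. With miR-22, 5 were called, 4 of them lower (40%, against 5.47% of all genes, median -0.27): Tnfaip3 fell by 0.81 on the log2 scale, Tnip1 by 0.75, Zc3h12a by 0.63 and Arid5a, an mRNA-stabilizing protein, by 1.15, whereas Dusp1, a MAP kinase phosphatase, rose by 1.34. The adjusted p of Tnfaip3 in this comparison was 0.0492, just inside the threshold. The 5 calls with miR-22 became 3 without miR-22-treated replicate 2 or 3 or untreated replicate 2, and 2 without untreated replicate 3.

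Among NF-kB and C/EBP factors, 5 of 7 rose in untreated HCC (71.4%, against 22.7% of all genes, median 0.83), with Relb up by 3.58, Nfkb2 by 2.03 and Rela by 0.83 on the log2 scale. With miR-22, Relb fell by 0.96 and Nfkb2 by 0.74 on that scale, both subunits of the non-canonical pathway that TRAF3 restrains, while Cebpb rose by 1.07. The median of the list was -0.41. Of the IκB family other than Nfkbiz, 3 of 5 rose in untreated HCC (60%, against 22.7% of all genes, Nfkbie by 2.37, Bcl3 by 1.39 and Nfkbid by 1.20, median 1.20), and Nfkbie and Bcl3 fell with miR-22 by 1.14 and 0.89 (median -0.51). Nfkbiz had no call in either comparison, and a difference between it and its relatives was not tested.

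IL17 target genes rose in untreated HCC in 13 of the 14 that could be tested (92.9%, against 22.7% of all genes), of 19 on the list. Of the 14, 5 had 3 counts or fewer in each healthy liver. These passed the filter only through the HCC livers, so they could only be called higher. Lcn2, lipocalin 2, went from 2.80 to 6.41 CPM in healthy livers to between 1244 and 2013 in untreated HCC, and Ccl2, a monocyte chemoattractant, rose by 5.29 on the log2 scale. Ccl20, the ligand of CCR6, had at most 2 counts in a healthy liver and was at least 28.1-fold higher in untreated HCC, taking 3 counts per healthy liver as the floor. The median log2 fold change of the list was 4.31, or 3.56 with the 5 genes at the floor in healthy livers set to that bound.

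With miR-22, 3 of these 14 targets were called lower (21.4%, against 5.47% of all genes), Ccl7 by 1.43, Cxcl2 by 1.26 and Lcn2 by 0.83 on the log2 scale, with a median of -0.42. Against healthy liver, 13 of 14 were called higher (92.9%, against 16.9% of all genes), again with 5 at the floor there that could only be called higher. None of the 3 falls was called without miR-22-treated replicate 3 or without untreated replicate 2 or 3. Lcn2 was at 848 to 1260 CPM in miR-22-treated livers. Saa1, an acute phase protein, was at 52.0 to 55.4 CPM in untreated HCC and 58.3 to 93.9 with miR-22, a difference that did not pass (log2 0.47, adjusted p = 0.0748).

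ERK feedback genes, the class to which Il17rd belongs by its role as Sef, were called in 9 of 11 cases in untreated HCC, 8 higher (72.7%, against 22.7% of all genes) and 1 lower, with a median of 1.52. Etv4, an ERK-induced transcription factor, held at most 2 counts in a healthy liver and 12.5 to 22.8 CPM in untreated HCC, so it passed the filter only through the HCC livers. Dusp4, an ERK phosphatase, rose by 3.86 and Spry1, an inhibitor of receptor tyrosine kinases, by 1.52 on the log2 scale. With miR-22, 4 of the 11 fell (36.4%, against 5.47% of all genes), Dusp4 by 1.39, Etv4 by 0.95, Etv5 by 0.84 and Spry1 by 0.65 on the log2 scale. These calls became 2 without miR-22-treated replicate 2 or 3 or untreated replicate 3. The median of the list was -0.67, and the value of Il17rd was -1.26. The NRAS plasmid acts on this pathway, and Nras was at 26.8 to 29.6 CPM in healthy livers, 63.3 to 77.3 in untreated HCC livers, and 53.3 to 55.3 with miR-22. The part of oncogene level in the change of Il17rd was not tested.

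**Figure D5:**
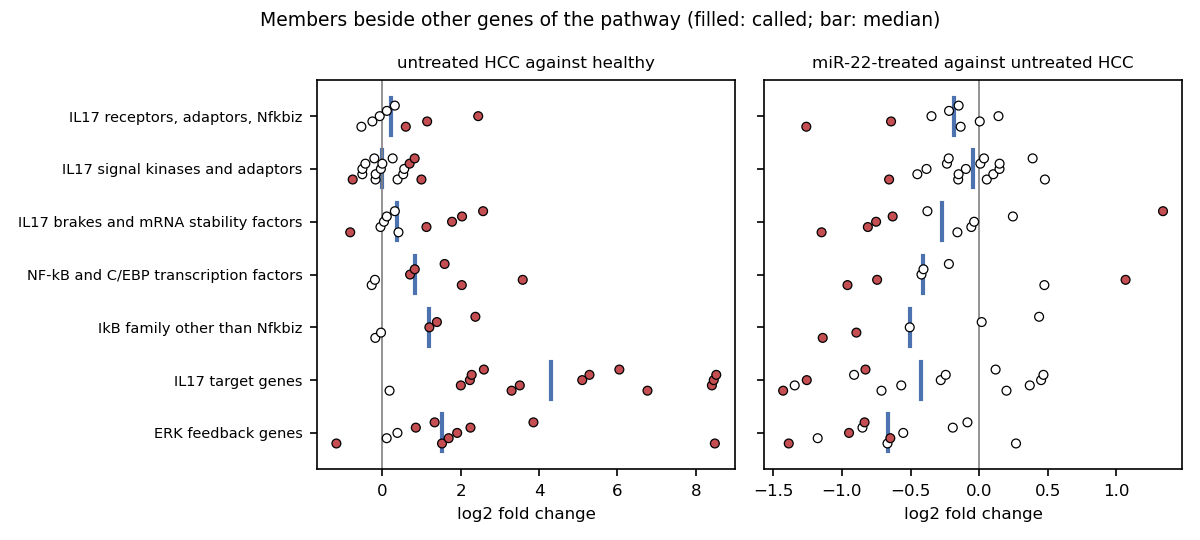
Log2 fold change of each tested gene of the pathway (points, filled where called) by list, with the list's median (blue bar), for untreated HCC against healthy liver (left) and miR-22-treated against untreated HCC (right). The 8 tested members are the top row, with medians of 0.22 and -0.18. Fitted values of genes with 3 counts or fewer in each healthy liver, among them Ccl20 and Etv4, are not bounds.

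Cell type markers moved with the same groups. The summed level of 6 hepatocyte markers was 120807 to 127000 CPM in healthy livers, 49445 to 62327 in untreated HCC livers, and 75032 to 90542 with miR-22. In untreated HCC 6 of 6 were called lower, as were 2842 of all 15717 genes tested. That of 6 ductal markers was 29.4 to 41.9, 3324 to 6214 and 1562 to 2701 CPM, with 5 of 6 higher in untreated HCC (83.3%, against 22.7% of all genes) and 4 of 6 lower with miR-22 (66.7%, against 5.47%). In both HCC groups almost all of that sum was Spp1, the secreted protein osteopontin, which in the same group order was at 23.7 to 31.9, 3239 to 6077 and 1527 to 2642 CPM. Sox9 and Epcam were called in both comparisons, with log2 differences of 4.84 and 3.63 in untreated HCC and -1.57 and -0.96 with miR-22. Krt19, a keratin of bile duct cells, was at 1.04 to 2.83, 2.28 to 5.81 and 1.59 to 6.61 CPM and was called in neither comparison. Cldn4 had at most 1 count in a healthy liver and passed the filter only through the HCC livers. The 5 stellate markers summed to 66.7 to 78.8, 239 to 293 and 151 to 204 CPM. In untreated HCC 3 were higher (60%, against 22.7% of all genes) and 1 lower (20%). With miR-22, 1 was higher and 1 lower (20% each), where 1308 and 859 of all 15717 genes were called. The higher stellate call was lost without miR-22-treated replicate 2 or 3 or untreated replicate 4. All 3 sums with miR-22 lay between the other groups, as did Il17rd and Traf3. These sums are led by single genes: Alb gave a mean of 101446 of 123245 CPM in healthy livers, and Col1a1 192 of 273 in untreated HCC. By group mean, each gene of the lists lay in between except Cyp3a11 and Des, which were highest with miR-22. The part of these cell types in the changes of Il17rd and Traf3 was not tested.

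Macrophage markers summed to 292 to 347 CPM in healthy livers, 247 to 289 in untreated HCC livers, and 316 to 340 with miR-22, and endothelial markers to 244 to 326, 174 to 214 and 204 to 274. In untreated HCC, 1 of the 7 macrophage markers was higher (14.3%, against 22.7% of all genes), a call lost without untreated replicate 2, and 1 was lower (14.3%). Of the 5 endothelial markers 2 were lower (40%), where 2842 of all 15717 genes were called lower. Neutrophil markers were at 1.51 to 2.89, 11.0 to 13.4 and 11.4 to 15.96 CPM. Only Csf3r and Cxcr2 could be tested, and both rose in untreated HCC, where 22.7% of all genes were called higher. Cxcr2 had at most 3 counts in a healthy liver and passed the filter only through the HCC livers, so it could only be called higher. Ly6g had 2 counts in miR-22-treated replicate 2 and 0 elsewhere. Of the T cell markers, Cd3d, Cd3e, Cd3g and Trac were at 1.66 CPM or less in all 9 livers and were not called in any comparison, and Il23r, the receptor of IL17-producing cells for IL23, had 2 counts in healthy replicate 1 and 0 in each other liver. With T cell transcripts at this level, whole-liver counts say little about receptors or adaptors within T cells.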

How the data were processed

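RNA sequencing of 9 mouse livers, 3 per group, was used. Per the labels and the study's methods, libraries were made with a non-directional kit, and the authors quantified paired reads with Salmon on GRCm39 and summed them per gene with tximport. FastQC 0.11.7 and DESeq2 1.18 are named in the submitters' processing notes. The authors deposited whole-number counts for 55401 genes, neither normalized nor filtered, and these were used for every result. A second table of normalized values was not used here.

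The tests between groups were run with edgeR 4.0.16 in R 4.3.3. Libraries were scaled with TMM, low genes removed with filterByExpr (minimum count 10), all 3 groups fitted at once without covariates and the quasi-likelihood F test applied, two-sided, with Benjamini-Hochberg adjustment over 15717 genes. A call needed an adjusted p below 0.05 plus a change of more than 1.5-fold. The script was tested on simulated data. Intervals are 95% intervals of the fitted fold change, and a count of 3 per library served as the floor. Genes were matched by identifier, without its version, to GENCODE M39 on GRCm39 for coordinates, exon length and 3′ UTRs, and RefSeq GRCm38.p6 gave the miR-22 and promoter sequences. Shares of receptors were compared with an exact permutation test in Python 3.11.15 with scipy 1.17.1, and figures were drawn with matplotlib 3.10.9.

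The named genes were all 9 members, the IL17 cytokines, up to 3 genes with the smallest p of each other list in each comparison, and the 3 genes most correlated with Il17ra, Traf3ip2 and Nfkbiz (log2 of CPM + 0.5). Akt1, Nras, Mir22, Mir22hg and the genes whose exons overlap a member are checks outside this rule. A few items that the rule or the searches named are not reported here. The members and lists were chosen with earlier results of these data known. The labels do not say whether replicates shared a cage or a day, so p-values measure the spread between these livers. Within groups, the chi-square per degree of freedom between 2 livers was 6.13 to 28.4, above counting error. Alternatives were DESeq2 1.42.0, 2 other normalizations, 2 other filters, a fit to 2 groups, no fold threshold, the replicate number as a block, the longest transcript as gene length, and each liver left out in turn.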

Additional observations from a re-analysis of the deposited data

How the results depend on the processing

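The 2 members called with miR-22 against untreated HCC became 1 with at least 10 counts in every library, since Il17rd was then not tested, and 0 to 2 with livers left out (0 without miR-22-treated replicate 3 or untreated replicate 3). The 2 called against healthy liver became 1 with that filter, 1 when only 2 groups were fitted, 0 with the replicate number as a block and 0 to 2 with livers left out. Without a liver, 2 to 3 members were called in untreated HCC against healthy liver. After the group means were subtracted, same-numbered livers of the HCC groups correlated at -0.28 to -0.14, and 0 of 6 correlated best with their own number. With 3 livers per group, this cannot tell whether the numbers mark a shared cage or day. The replicate block gave 5863, 1745 and 3044 genes called over all genes, against 6417, 2167 and 3772.

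Without a fold threshold 3777 genes were called between the HCC groups and 5732 between miR-22-treated and healthy liver. With livers left out, the counts were 6062 to 6587, 1433 to 2660 and 3242 to 3809 genes, and 37 to 40, 10 to 20 and 24 to 28 of the pathway genes. The pathway count against healthy liver was 17 with at least 10 counts in every library, where fewer genes are tested. The share of Il17rd in untreated HCC was 2.73 points above healthy liver with the longest transcript as length.

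Signs reversed only in values that were never called. For Traf6 between the HCC groups, DESeq2 and its size factors gave -0.024 and -0.021, at least 10 counts -0.012, upper-quartile scaling -0.035 and 2 groups -0.00026, and livers left out gave -0.063 to 0.087. Against healthy liver, leaving livers out gave -0.15 to 0.019 for Traf6 with miR-22. Nfkbiz ranged over -0.079 to 0.32 in untreated HCC, -0.25 to 0.026 between the HCC groups and -0.22 to 0.19 for miR-22-treated against healthy liver, where the block gave 0.17 and at least 10 counts 0.010. The cause was not tested. Of the other values, 213 counts and shares were classed as close to their value in the main processing, and 18 as moved. This does not mean that each kept its sign. With livers left out, the share difference of Il17re ranged over -0.24 to 0.34 points between the HCC groups. For miR-22-treated against healthy liver it ranged over -0.42 to 0.15 points. Among values of single genes, 295 kept their side, while 19 lost and 3 gained a call. Depth limits Il17re and Il17rd most.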
